A study of Homo sapiens with 12 samples.

Results

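Transcript levels of 8 genes of DNA replication and nucleotide synthesis were examined in WM35, an established human melanoma cell line, after exposure to ciclopirox or crizotinib. Each gene was represented by 1 listed probe of an Illumina expression BeadChip: TYMS (ILMN_1806040), TK1 (ILMN_1806037), MCM2 (ILMN_1681503), MCM4 (ILMN_1737205), MCM10 (ILMN_2413898), CDC45 (ILMN_1670238), GINS2 (ILMN_1809590) and EXO1 (ILMN_1673721). They are 8 of the 18811 genes that the platform table names and 8 of the 10187 named genes that were tested, with probes among the 47230 in the deposited scanner table and the 18285 tested. All 8 had a detection p-value below 0.01 on all 12 arrays, so none had to be marked as dim. The gene symbols in the platform table matched all 8.

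Before a cell can copy its DNA, origins are licensed by loading of the MCM ring, to which MCM2 and MCM4 belong. CDC45 and the GINS complex, of which GINS2 is a subunit, then join the ring to form the active helicase, with MCM10 acting at that step. TYMS makes thymidylate from deoxyuridylate and TK1 salvages thymidine, so both feed the supply of precursors. EXO1 is an exonuclease that resects DNA in mismatch repair and recombination. Most of these genes are known targets of E2F factors and are transcribed mainly in cells that enter or pass through S phase.

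By their titles, ciclopirox had 3 arrays at 8 h and 2 at 24 h, crizotinib likewise had 3 and 2, and there were 2 control arrays. Cells of all groups grew in medium with 5% serum. Ciclopirox is a hydroxypyridone antifungal and iron chelator, and crizotinib inhibits the tyrosine kinases MET, ALK and ROS1. Each drug was used at the concentration that inhibited by 75% in a 72 h test, and the vehicle was DMSO. No time is stated for the controls, and every drug group was set against the same 2 control arrays, which those comparisons therefore share. Whether the arrays within a group represent separate cultures is not stated, so p-values reflect the spread between arrays alone, and that spread may be technical. The stated purpose was to derive drug signatures in this line and relate them to the outcome of patients with melanoma.

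The 2 deposited tables attach the arrays to the samples differently, and every result below depends on which is followed. In the scanner table a column is named by its position on the chip (A to L), and the sample descriptions assign these positions to samples. In the processed table a column is named by its sample. When each processed column was matched to the scanner array with the same profile, over 8749 probes with at least 100 intensity units on every array, the best match had a Pearson correlation between 0.960 and 0.990. The next array reached at most 0.687. By that match, 10 of the 12 samples followed an array other than the one their description names. Both tables give the same drug and time to 5 of the 12 arrays: the controls A and B, the ciclopirox 24 h array F and the crizotinib 8 h arrays H and I. Array E is ciclopirox in both, at 24 h in the processed table and at 8 h in the descriptions. The processed table makes J, K and L ciclopirox 8 h, G crizotinib 8 h, and C and D crizotinib 24 h. The descriptions make C and D ciclopirox 8 h, G ciclopirox 24 h, J crizotinib 8 h, and K and L crizotinib 24 h.

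Arrays that carry the same label in the processed table correlated with a mean r of 0.37 (lowest 0.17), against 0.15 (lowest -0.26) for arrays that share a description label. The most similar array had the same label for 12 of 12 arrays by the processed table and for 5 of 12 by the descriptions. These correlations describe the 12 profiles and carry no test. Under both pairings, each group fills neighbouring positions of 1 BeadChip, so position and group cannot be told apart. Each comparison is given with the arrays paired by the processed table, and then with the arrays paired by their descriptions. The first pairing was chosen after seeing the data.

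**Figure D1:**
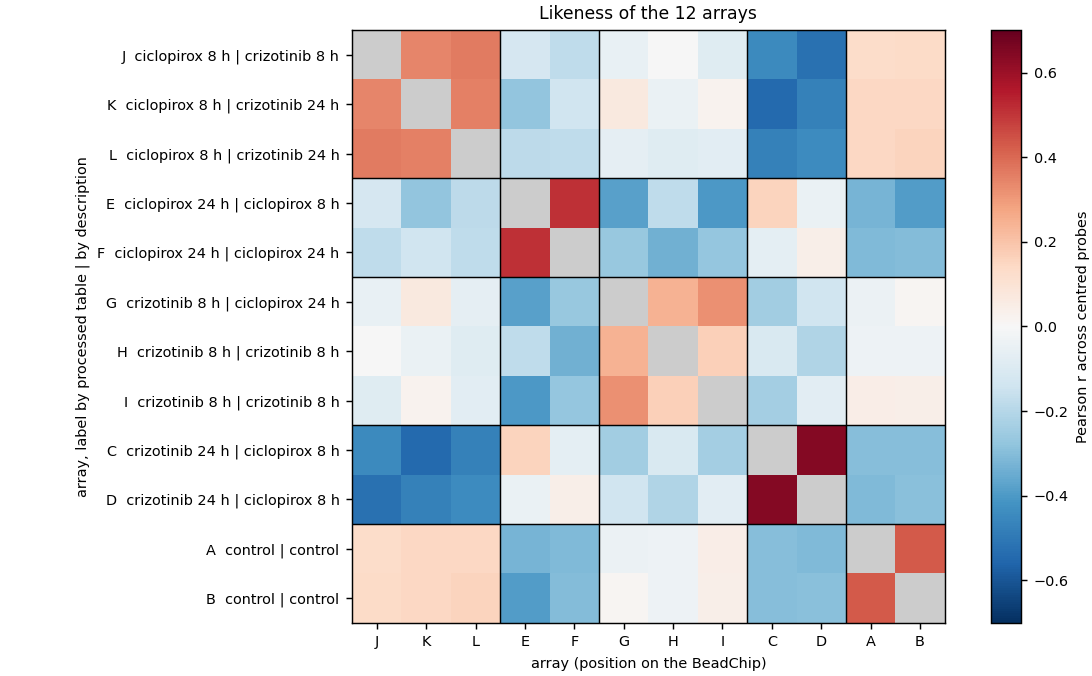
Pearson correlation between arrays (colour, without unit) across centred log2 intensities, with arrays in the order of the processed table's groups and black lines between those groups. Each row gives the position, the label by the processed table and the label by the description. Within groups of the processed table r was 0.17 or more. Between those groups it reached 0.16, so paler red also lies outside the blocks.

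As a check on the cell line, 7 of 8 melanocyte lineage markers had a probe. SOX10 was detected on all 12 arrays and MITF on 11. MLANA, PMEL, TYR, TYRP1 and S100B were detected on none. Of 4 fibroblast markers, COL1A1, COL3A1 and DCN were detected on none and LUM on 10 arrays, and 2 keratinocyte and 2 leukocyte markers were detected on none. Mean intensity per array ranged from 346 to 398, and 15561 to 17106 probes were detected per array.

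Promoter sequence was given for 7 of the 8 genes (RefSeq, GRCh38.p14, 250 bases before to 50 bases after the start, and the first window where a gene has several). MCM4 was not among them. The 5 promoters below belong to the replication and repair genes whose levels moved most, and they are shown 5′ to 3′ on the strand of the gene because all 5 fell with crizotinib at 24 h by the processed table, while EXO1 was the gene that rose with ciclopirox at 24 h. Capitals mark E2F-like letters and CCAAT boxes on either strand. They lie at chr3:127598161-127598460 (plus strand), chr10:13161308-13161607 (plus), chr22:19479670-19479969 (plus), chr16:85688905-85689204 (minus) and chr1:241847954-241848253 (plus).
MCM2: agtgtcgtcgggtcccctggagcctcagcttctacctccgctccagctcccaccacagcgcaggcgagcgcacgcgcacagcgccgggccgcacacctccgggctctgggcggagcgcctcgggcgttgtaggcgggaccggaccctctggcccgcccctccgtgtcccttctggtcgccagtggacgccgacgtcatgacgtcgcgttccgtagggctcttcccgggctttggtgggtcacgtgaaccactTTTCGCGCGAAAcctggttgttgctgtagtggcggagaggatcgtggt
MCM10: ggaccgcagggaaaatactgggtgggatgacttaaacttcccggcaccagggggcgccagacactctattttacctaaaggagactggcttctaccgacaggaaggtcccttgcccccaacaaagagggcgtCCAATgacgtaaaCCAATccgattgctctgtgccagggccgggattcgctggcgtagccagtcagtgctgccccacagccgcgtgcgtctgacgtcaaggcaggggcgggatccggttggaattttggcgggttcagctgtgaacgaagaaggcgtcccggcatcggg
CDC45: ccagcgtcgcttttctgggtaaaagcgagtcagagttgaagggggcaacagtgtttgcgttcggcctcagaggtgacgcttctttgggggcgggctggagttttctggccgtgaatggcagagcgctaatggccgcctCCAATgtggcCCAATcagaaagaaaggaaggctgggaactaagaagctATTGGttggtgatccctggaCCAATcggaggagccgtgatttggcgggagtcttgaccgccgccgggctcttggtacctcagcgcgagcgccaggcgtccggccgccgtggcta
GINS2: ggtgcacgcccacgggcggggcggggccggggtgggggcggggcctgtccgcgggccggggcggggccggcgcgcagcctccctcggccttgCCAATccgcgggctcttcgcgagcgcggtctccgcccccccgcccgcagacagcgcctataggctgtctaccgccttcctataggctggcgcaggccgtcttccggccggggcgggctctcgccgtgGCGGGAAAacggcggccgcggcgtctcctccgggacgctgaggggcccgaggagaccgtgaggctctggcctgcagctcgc
EXO1: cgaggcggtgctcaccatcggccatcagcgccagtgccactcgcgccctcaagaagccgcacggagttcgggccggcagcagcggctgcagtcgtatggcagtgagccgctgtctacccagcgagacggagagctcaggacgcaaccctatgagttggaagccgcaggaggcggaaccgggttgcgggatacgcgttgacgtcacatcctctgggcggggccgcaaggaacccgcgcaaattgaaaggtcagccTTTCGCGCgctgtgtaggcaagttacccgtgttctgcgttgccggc

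The E2F-like letters searched on both strands were TTTCGCGC (the reverse complement of GCGCGAAA, also listed), TTTGGCGC, TTTCCCGC and their shorter forms TTGGCGC and TTCCCGC, which overlap the longer ones. They were present in 4 of the 7 promoters, those of TYMS, MCM2, GINS2 and EXO1, against 9.716% of 27305 promoters, 1 window per gene. MCM2 and EXO1 both held TTTCGCGC just downstream of the start, beginning at bases 2 and 4, and in MCM2 its reverse complement overlapped it at base 6. TTTCGCGC occurred in 0.546% of promoters. GINS2 carried the reverse complement of TTTCCCGC 31 bases before the start, and TYMS carried it 39 bases before the start. CCAAT occurred in 3 of 7 promoters, 4 times in CDC45, 2 times in MCM10 and 1 time in GINS2, against 35.697% of all promoters. TTTGAA, the core of the cell cycle homology region, was in 0 of 7, against 15.426% of all. The search took exact letters, so near forms were not counted or marked: TTTGGCGGG, for instance, is present in the MCM10 and CDC45 windows. These matches describe letters in the windows and not bound sites. The genes with E2F-like letters included TYMS and EXO1, whose levels followed the other genes least closely, and also MCM2 and GINS2. Whether the letters relate to the levels was not tested.

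**Figure D2:**
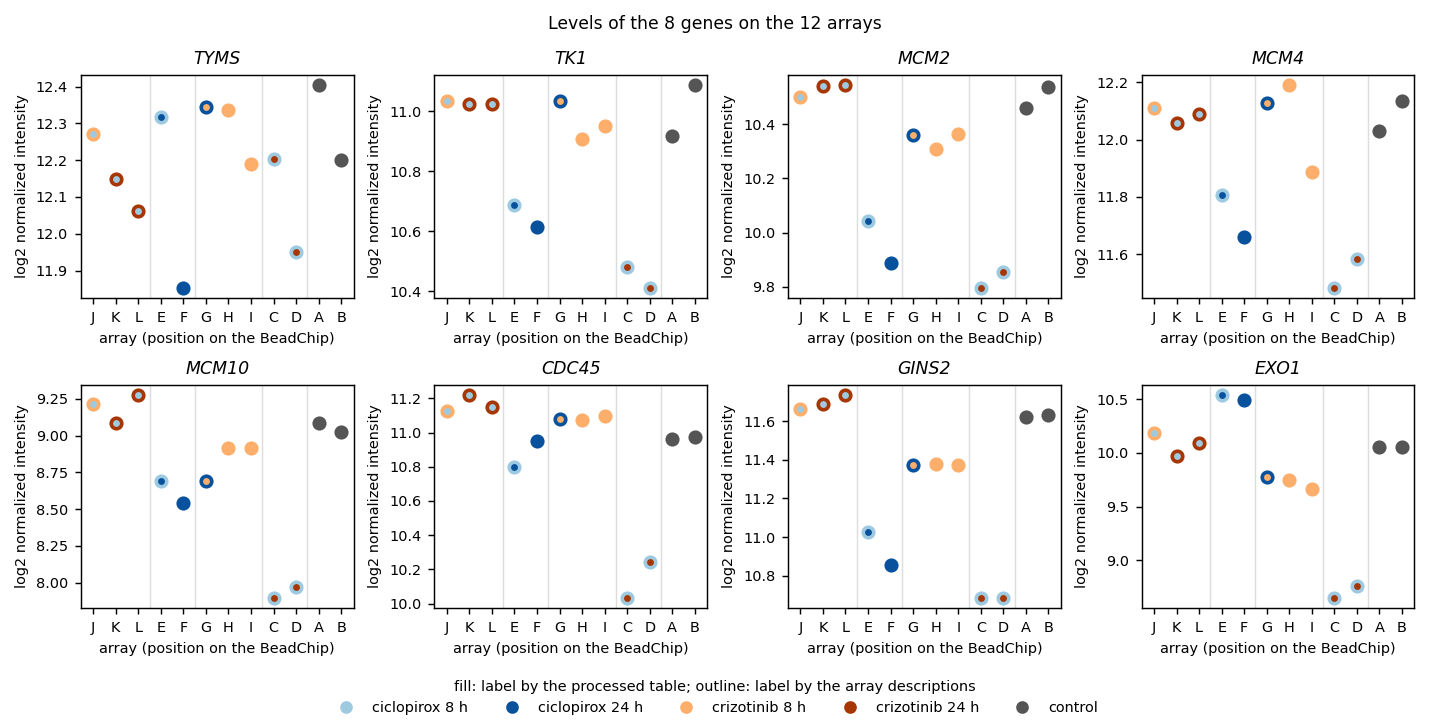
Log2 normalized intensity (y axis) of each gene on each of the 12 arrays (x axis, position on the chip), grouped by the processed table. Fill gives the label by the processed table and outline the label by the description. Arrays C and D are the lowest of the 12 for all genes but TYMS, and E and F are the highest for EXO1.

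The helicase ring subunits moved in parallel. MCM2 had log2 intensities of 10.50, 10.54 and 10.55 on J, K and L (ciclopirox 8 h by the processed table), 10.04 and 9.89 on E and F (ciclopirox 24 h), 10.36, 10.31 and 10.36 on G, H and I (crizotinib 8 h) and 9.80 and 9.85 on C and D (crizotinib 24 h), against 10.46 and 10.54 on the control arrays A and B. C, D, E and F were low, and G, H and I lay just below the controls. By the processed table, MCM2 fell to 69.1% of control after ciclopirox for 24 h (log2 difference -0.53 ± 0.09 SE, limma adjusted p = 0.00441) and to 62.7% after crizotinib for 24 h (-0.67 ± 0.09, limma adjusted p = 0.000769). Paired by the descriptions, the ciclopirox 8 h arrays (C, D and E) lay 0.60 below control on the log2 scale in MCM2, a log2 difference of -0.60 ± 0.15 that did not pass (limma adjusted p = 0.055).

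MCM4, another subunit of the same ring, stood at 12.11, 12.06 and 12.09 on J, K and L, 11.80 and 11.66 on E and F, 12.13, 12.19 and 11.89 on G, H and I and 11.48 and 11.58 on C and D, against 12.03 and 12.13 on controls A and B. The order of the low arrays was the one seen for MCM2, but of G, H and I only array I lay below both controls. Ciclopirox at 24 h by the processed table gave 78.5% of control (log2 difference -0.35 ± 0.12), which did not pass (limma adjusted p = 0.0704). MCM4 fell to 68.3% after crizotinib at 24 h (-0.55 ± 0.12, limma adjusted p = 0.00841). By the descriptions, the MCM4 difference was -0.46 ± 0.16 for ciclopirox at 8 h (limma adjusted p = 0.129) and -0.01 ± 0.18 for crizotinib at 24 h (limma adjusted p = 0.999).

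Among the factors that turn the loaded ring into an active helicase, MCM10 spanned the widest range. Its log2 intensities were 9.21, 9.08 and 9.28 on J, K and L, 8.69 and 8.54 on E and F, 8.69, 8.91 and 8.91 on G, H and I and 7.89 and 7.97 on C and D, against 9.08 and 9.02 on controls A and B. C and D were far below all others, and every E to I array was also below both controls. By the processed table, MCM10 fell to 73.8% of control after ciclopirox at 24 h (log2 difference -0.44 ± 0.12, limma adjusted p = 0.0278) and to 46.0% after crizotinib at 24 h (-1.12 ± 0.12, limma adjusted p = 0.000104). Under the alternative processing described below, the ciclopirox difference in MCM10 ranged from -0.51 to -0.37 and did not pass in all fits. Paired by the descriptions, MCM10 was at 54.8% of control in ciclopirox 8 h arrays (log2 difference -0.87 ± 0.21), which missed the threshold (limma adjusted p = 0.0526).

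CDC45, the helicase component that the kinases of S phase help to recruit, read 11.12, 11.22 and 11.15 on J, K and L, 10.80 and 10.95 on E and F, 11.08, 11.07 and 11.10 on G, H and I and 10.03 and 10.24 on C and D, against 10.96 and 10.98 on controls A and B. C and D stood alone at the low end, and E and F were just below the controls. The CDC45 level by the processed table was 93.7% of control with ciclopirox at 24 h (log2 difference -0.09 ± 0.10, 95% interval -0.32 to 0.13, limma adjusted p = 0.585). It fell to 56.1% of control with crizotinib at 24 h (-0.83 ± 0.10, limma adjusted p = 0.000367). By the descriptions, the CDC45 level was 65.4% of control in ciclopirox 8 h arrays (log2 difference -0.61 ± 0.18, limma adjusted p = 0.0872).

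GINS2, the remaining helicase subunit, had log2 intensities of 11.66, 11.69 and 11.74 on J, K and L, 11.03 and 10.85 on E and F, 11.37, 11.38 and 11.37 on G, H and I and 10.69 and 10.68 on C and D, against 11.62 and 11.63 on controls A and B. Groups of the processed table did not overlap in this gene at any point, with C and D lowest, then F and E, then the G to I arrays. By that pairing, GINS2 fell to 62.2% of control after ciclopirox at 24 h (log2 difference -0.69 ± 0.09, limma adjusted p = 0.00099) and to 52.1% after crizotinib at 24 h (-0.94 ± 0.09, limma adjusted p = 8.27e-05). The crizotinib 8 h arrays were at 84.1% of control (-0.25 ± 0.09), which did not pass (limma adjusted p = 0.197). By the descriptions, GINS2 was the 1 gene of the 8 that passed against control: it fell to 56.4% in ciclopirox 8 h arrays (log2 difference -0.83 ± 0.17, limma adjusted p = 0.0354).

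Of the enzymes of thymidylate supply, TK1 followed the helicase genes. It had log2 intensities of 11.03, 11.02 and 11.02 on J, K and L, 10.69 and 10.62 on E and F, 11.04, 10.91 and 10.95 on G, H and I and 10.48 and 10.41 on C and D, against 10.92 and 11.09 on controls A and B. C, D, E and F were well below both controls, H was just below them, and the remaining treated arrays lay between them. TK1 fell by the processed table to 78.4% of control after ciclopirox at 24 h (log2 difference -0.35 ± 0.10, limma adjusted p = 0.0364) and to 67.9% after crizotinib at 24 h (-0.56 ± 0.10, limma adjusted p = 0.00304). Under the alternative processing described below, the ciclopirox difference in TK1 ranged from -0.44 to -0.27 and did not pass in all fits. By the descriptions, the TK1 difference was -0.48 ± 0.15 in ciclopirox 8 h arrays (limma adjusted p = 0.0908).

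TYMS did not pass in any comparison. Its log2 intensities were 12.27, 12.15 and 12.06 on J, K and L, 12.32 and 11.85 on E and F, 12.35, 12.34 and 12.19 on G, H and I and 12.20 and 11.95 on C and D, against 12.41 and 12.20 on controls A and B. E and F, which share a label by the processed table, lay near opposite ends of the range, and every group of that pairing overlapped the controls. The TYMS difference from control by the processed table was -0.22 ± 0.16 after ciclopirox at 24 h (95% interval -0.57 to 0.13) and -0.23 ± 0.16 after crizotinib at 24 h (95% interval -0.58 to 0.12). By the descriptions, it was -0.20 ± 0.18 for each drug at 24 h. The intervals include falls as large as that of TK1, so a change of that size could not be told from none.

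EXO1 had the largest difference between the drugs by the processed table. Its log2 intensities were 10.19, 9.97 and 10.09 on J, K and L, 10.54 and 10.49 on E and F, 9.78, 9.75 and 9.67 on G, H and I and 8.65 and 8.76 on C and D, against 10.05 and 10.05 on controls A and B. E and F stood above every other array and C and D far below, with G, H and I between C and D and the controls. EXO1 rose by the processed table to 138% of control after ciclopirox at 24 h (log2 difference 0.46 ± 0.10, limma adjusted p = 0.0138). It fell to 39.2% of control after crizotinib at 24 h (log2 difference -1.35 ± 0.10, limma adjusted p = 1.21e-05). Under the alternative processing described below, the ciclopirox difference in EXO1 ranged from 0.43 to 0.49 and did not pass in all fits. By the descriptions, C, D and E share a label, and the EXO1 difference in ciclopirox 8 h arrays was -0.74 with a wide 95% interval of -1.73 to 0.25 (limma adjusted p = 0.364).

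**Figure D3:**
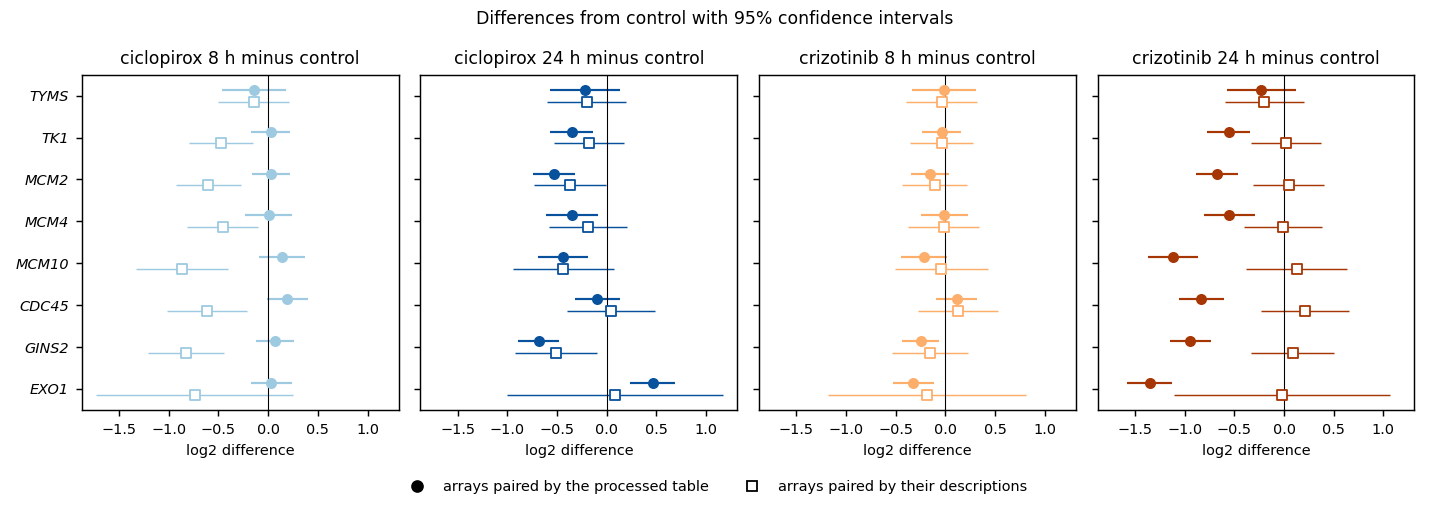
Log2 difference from control (x axis) of each gene (rows) in each drug group, with 95% confidence intervals from limma. Filled circles pair arrays by the processed table and open squares by the descriptions; the filled circles lie below 0 for 8 of 8 genes in crizotinib 24 h, and only the EXO1 circle lies above 0 in ciclopirox 24 h.

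At 24 h by the processed table, some of these genes fell with ciclopirox and most with crizotinib. With ciclopirox at 24 h, 4 of 8 passed as lower than control (6.54% of all tested probes did) and EXO1 as higher (8.09% of all probes). In 6 of 8 the arrays lay wholly below the controls, against 29.5% of all probes, and the median log2 difference was -0.35, against -0.01 over all probes. With crizotinib at 24 h, 7 of 8 passed as lower and none as higher, where 9.02% of all probes passed as lower. In 7 of 8 the arrays lay wholly below the controls, against 31.0% of all probes, and the median was -0.75, against -0.02 over all probes. The ciclopirox 24 h count rested on single arrays: 2 genes passed without control A, without control B or without the first ciclopirox 24 h array (E), and 3 without the second (F), with MCM2 and GINS2 among them each time. RNA came from whole cultures, so fewer cells in replication and less RNA per cell cannot be told apart.

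By the descriptions, 0 of 8 passed for ciclopirox at 24 h, with MCM2 and GINS2 at an unadjusted p below 0.05, and 0.00547% of all probes passed in limma. For crizotinib at 24 h 0 of 8 passed, with 0 at an unadjusted p below 0.05, and 0% of all probes passed in limma. The ciclopirox 24 h group holds F and G there, in place of E and F. The medians of the 8 were -0.20 for ciclopirox and 0.03 for crizotinib.

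At 8 h by the processed table, none of the 8 passed in limma with either drug. For ciclopirox, 0 of 8 had an unadjusted p below 0.05, and 0.536% of all probes passed. Log2 differences ran from -0.14 in TYMS to 0.19 in CDC45, with a median of 0.03. For crizotinib, GINS2 and EXO1 had an unadjusted p below 0.05 and 0 of 8 passed, against 1.53% of all probes. EXO1 was at 80.0% of control there (log2 difference -0.32 ± 0.09, limma adjusted p = 0.129).

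At 8 h by the descriptions, ciclopirox arrays (C, D and E) were lower than control in 8 of 8 genes with a median of -0.61, and 1 of 8 passed as lower in limma, where 1.34% of all probes did. With these groups, same-numbered ciclopirox and crizotinib 8 h arrays deviated together, with r of 0.17, 0.33 and 0.30. No label states that such arrays were paired, and with the groups of the processed table the 8 h arrays did not deviate together. For same-numbered ciclopirox 24 h and crizotinib 24 h arrays, r was 0.38 by the processed table and -0.04 by the descriptions. With the replicate number added to the fit by the descriptions as a replicate block, 4 of 8 passed for ciclopirox at 8 h. They were MCM2 (-0.66, limma adjusted p = 0.0261), MCM10 (-1.04, 0.00766), CDC45 (-0.73, 0.0319) and GINS2 (-0.93, 0.0115). The count without a block depended on single arrays: it was 0 without control A or B, without C or D, without H or I and without K or L, 3 without F or G, and 6 without E. Crizotinib at 8 h gave 0 of 8 in limma and 0 at an unadjusted p below 0.05, and 0% of all probes passed.

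The size of the change between 8 h and 24 h within each drug is taken without the control arrays. Those arrays still enter the normalization and the estimate of the spread. By the processed table, 5 of 8 genes were lower at 24 h than at 8 h with ciclopirox (7.95% of all probes were) and EXO1 was higher (9.16% of all probes). GINS2 fell to 59.2% of its 8 h level (log2 difference -0.76 ± 0.09, limma adjusted p = 0.000329), while CDC45 stood at 81.8% and did not pass (limma adjusted p = 0.0586). Without array E, 3 of 8 passed in this comparison. With crizotinib, 7 of 8 were lower at 24 h, where 9.55% of all probes were. CDC45 was at 51.9% of its 8 h level (-0.95 ± 0.09, limma adjusted p = 8.01e-05) and EXO1 at 49.1% (-1.03 ± 0.09, limma adjusted p = 4.65e-05).

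By the descriptions the signs turned for most genes. Between 8 h and 24 h of ciclopirox 7 of 8 differences were positive, with a median of 0.31. None passed in limma (0 of 8, CDC45 with an unadjusted p below 0.05), nor did any other probe (0%). Without array E, 3 of 8 passed. For crizotinib 7 of 8 were positive with a median of 0.12, and 0 of 8 passed in limma, with 0 at an unadjusted p below 0.05 and 0% of all probes.

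Set directly against each other at 24 h by the processed table, ciclopirox arrays were higher than crizotinib arrays in 8 of 8 genes and 3 of 8 passed, where 7.34% of all probes passed as higher. EXO1 was at 351% of its crizotinib level (log2 difference 1.81 ± 0.10, limma adjusted p = 1.65e-06), CDC45 at 167% (0.74 ± 0.10, limma adjusted p = 0.000843) and MCM10 at 160% (0.68 ± 0.12, limma adjusted p = 0.00262). The other 5 did not pass. MCM2 differed by 0.14 (95% interval -0.07 to 0.35), MCM4 by 0.20 (-0.06 to 0.46), TK1 by 0.21 (-0.01 to 0.42) and TYMS by 0.01 (-0.34 to 0.36), with intervals that include 0. GINS2, at 0.26 (0.05 to 0.46), had an unadjusted p of 0.0195 and an adjusted p of 0.0943 in limma. The change from 8 h to 24 h differed between the drugs in EXO1 (1.46 ± 0.13, limma adjusted p = 0.000235) and CDC45 (0.66 ± 0.13, limma adjusted p = 0.0187), so 2 of 8 passed as higher, against 2.85% of all probes. The CDC45 call in this interaction was lost without array C or without array F, when 1 of 8 passed.

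The drugs were given at matched inhibitory concentrations and matched times, with 10 comparisons in all for each pairing and p-values adjusted over the 18285 probes within each comparison. At 8 h by the processed table, 2 of 8 genes were higher with ciclopirox than with crizotinib, where 1.90% of all probes were. These were EXO1 (log2 difference 0.35 ± 0.08, limma adjusted p = 0.0417) and GINS2 (0.32 ± 0.08, limma adjusted p = 0.0422). Both calls stood close to the threshold, and at most 1 of 8 passed when any of the 12 arrays was left out. Over both times together, MCM10, CDC45, GINS2 and EXO1 were higher with ciclopirox, 4 of 8 against 7.63% of all probes, and EXO1 averaged 212% of its crizotinib level (1.08 ± 0.07, limma adjusted p = 2.49e-06).

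By the descriptions the same comparisons ran the other way. At 8 h, ciclopirox arrays were lower than crizotinib arrays in 8 of 8 genes, and 3 of 8 passed as lower, where 1.26% of all probes did. These were MCM10 (56.3% of the crizotinib level, log2 difference -0.83 ± 0.19, limma adjusted p = 0.044), CDC45 (59.8%, -0.74 ± 0.17, limma adjusted p = 0.0418) and GINS2 (62.7%, -0.67 ± 0.15, limma adjusted p = 0.0449). With the replicate block 4 of 8 passed, MCM2 being added (limma adjusted p = 0.0458). Without a block the count was 0 without control A or B, without C or D, without H, I or J and without K or L, 5 without F or G, and 7 without E. Over both times MCM10 (-0.70 ± 0.15, limma adjusted p = 0.0451) and GINS2 (-0.64 ± 0.12, limma adjusted p = 0.0365) were lower, 2 of 8 against 0.837% of all probes. That count was 0 when A, B, C, D, F, H, I, J, K or L was left out, 4 without E and 5 without G. At 24 h 0 of 8 passed in limma (MCM2, MCM10 and GINS2 had an unadjusted p below 0.05) and 0% of all probes did. The interaction of drug and time likewise gave 0 of 8, with 0 at an unadjusted p below 0.05 and 0% of all probes in limma.

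**Figure D4:**
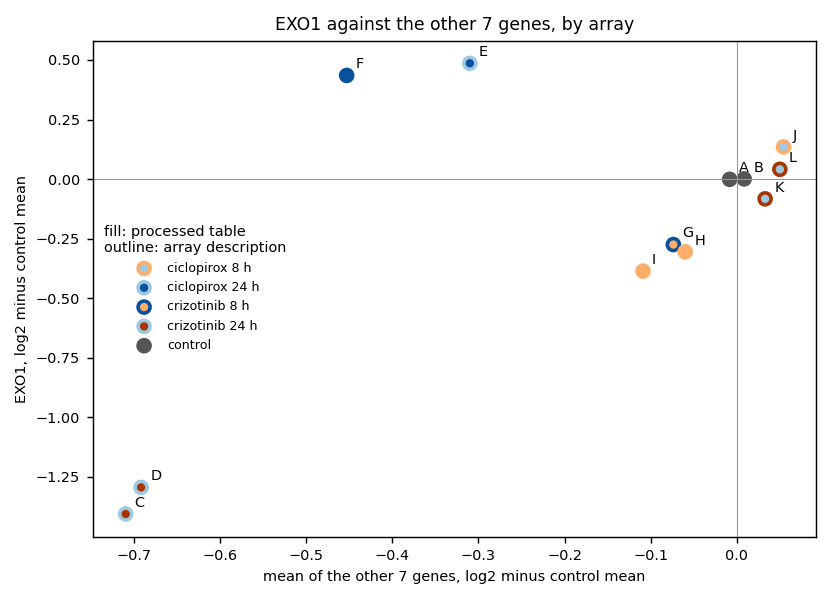
EXO1 (y axis) against the mean of the other 7 genes (x axis) on each array, both as log2 intensity minus the mean of the 2 control arrays; letters give the position, fill the label by the processed table and outline the label by the description. Arrays E and F combine a mean of -0.31 and -0.45 for the other genes with an EXO1 value of 0.49 and 0.44, while C and D are low on both axes.

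The likeness of the genes over the 12 arrays was uneven and needs no sample labels. Pearson correlation with the mean of the other members was 0.97 for MCM10, 0.92 for TK1 and CDC45, 0.91 for GINS2, 0.90 for MCM2, 0.89 for MCM4, 0.61 for EXO1 and 0.36 for TYMS. MCM2 and GINS2 were the closest pair (0.99) and TYMS and EXO1 the most distant (0.12). The points share 1 chip and a few treatments, so these values only describe. EXO1 spanned the widest range, 1.89 log2 units from C to E, and TYMS the narrowest, 0.55 from F to A. On E and F, the other 7 genes averaged 0.31 and 0.45 below the control mean on the log2 scale (-0.31 and -0.45), whereas EXO1 was 0.49 and 0.44 above it.

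Outside the set, 4 of 13829 probes detected on all arrays followed the mean of the 8 genes most closely. They were HAUS8, an augmin subunit of the mitotic spindle (r = 0.98, Spearman rho 0.92), USP1, a deubiquitinase that acts on PCNA and FANCD2 (r = 0.98, rho 0.92), DCUN1D4 (r = 0.98, rho 0.97) and CDC25A, a phosphatase that activates cyclin-dependent kinases (r = 0.98, rho 0.87), each over 12 arrays. Because they were chosen by likeness on these same arrays, falls on the arrays where the 8 genes were low follow from the choice. The values below therefore only describe them. Their log2 differences from control by the processed table were -0.42 for HAUS8, -0.28 for USP1, -0.25 for DCUN1D4 and -0.56 for CDC25A after ciclopirox at 24 h. After crizotinib at 24 h they were -1.13 for HAUS8, -0.86 for USP1, -0.77 for DCUN1D4 and -1.37 for CDC25A.

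Further probes exist for 3 of the 8 genes. A second EXO1 probe (ILMN_2351916) read 8.36 and 8.44 on E and F and 6.67 and 6.83 on C and D, against 8.06 and 8.14 on controls A and B. It gave, by the processed table, 0.30 ± 0.11 for ciclopirox at 24 h, which did not pass (limma adjusted p = 0.0851), and -1.34 ± 0.11 for crizotinib at 24 h (limma adjusted p = 1.76e-05). At 8 h it was lower with crizotinib than in control (-0.47 ± 0.10, limma adjusted p = 0.0423). The 24 h difference between the drugs was 1.65 ± 0.11 (limma adjusted p = 4.17e-06). Another EXO1 probe (ILMN_1719089) was detected on 0 arrays and was not tested. For MCM10, the other probe (ILMN_2413899) gave -0.49 ± 0.14 after ciclopirox at 24 h (limma adjusted p = 0.0432) and -1.31 ± 0.14 after crizotinib at 24 h (limma adjusted p = 0.000161). For MCM4, the other probe (ILMN_2412860) gave -0.36 ± 0.13 after ciclopirox at 24 h (limma adjusted p = 0.0907) and -0.78 ± 0.13 after crizotinib at 24 h (limma adjusted p = 0.00231). Paired by the descriptions, the further EXO1, MCM10 and MCM4 probes did not pass for ciclopirox at 8 h (limma adjusted p = 0.27, 0.0583 and 0.105), with a log2 difference of -0.81 in EXO1 and -0.59 in MCM4 and a level of 49.9% of control in MCM10.

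Other genes of the same pathways were counted in 7 lists, each of which includes those of the 8 genes that belong to it. Of 114 listed genes outside the 8 that were tested, 24 were lower and 8 higher after ciclopirox at 24 h by the processed table (limma), where 6.54% of all tested probes were lower and 8.09% higher, and the median log2 difference was -0.16. After crizotinib at 24 h 67 were lower and 2 higher, where 9.02% of all probes were lower and 9.91% higher, and the median was -0.45. The median over all tested probes was -0.01 for ciclopirox and -0.02 for crizotinib at that time. At 8 h, CCND1 was higher with ciclopirox (0.57, limma adjusted p = 0.0235) and no other of the 114 passed with either drug. In the counts and values that follow, ciclopirox and crizotinib at 24 h are set against control by the processed table, and the shares of all probes just given apply to each list.

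**Figure D5:**
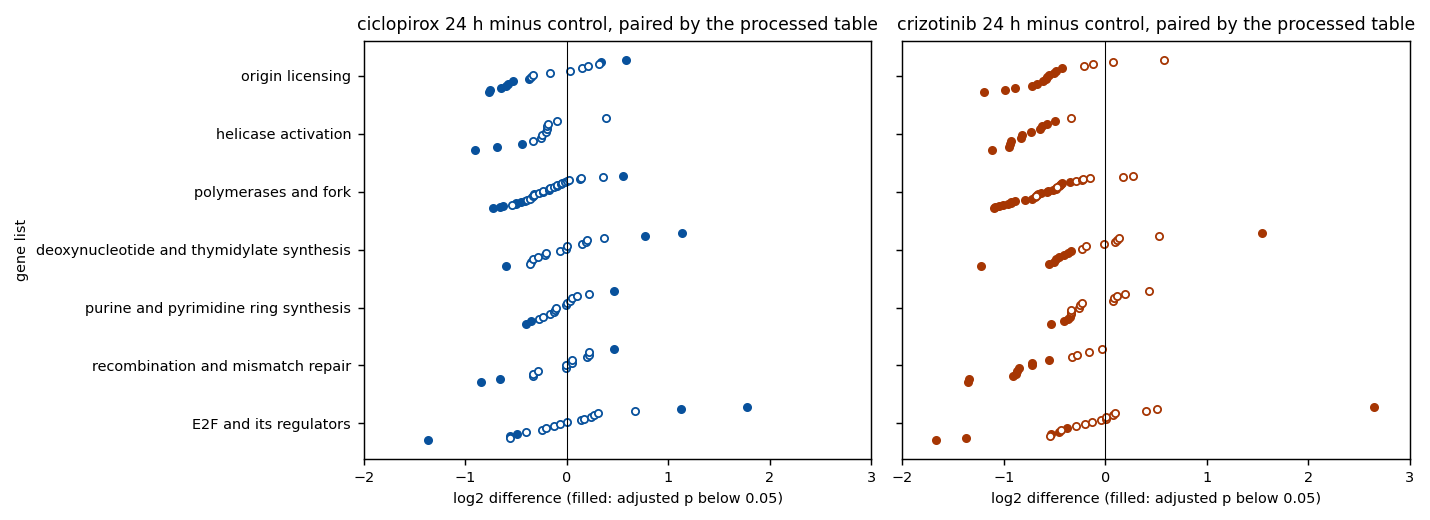
Log2 difference from control (x axis) of each tested gene in the 7 lists (rows), for ciclopirox 24 h (left) and crizotinib 24 h (right), with arrays paired by the processed table. Filled points passed in limma; in the helicase activation row, 11 of 12 are filled on the right and 3 of 12 on the left.

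Origin licensing and helicase activation genes were lower in greater number with crizotinib. Of 16 tested licensing genes, 7 were lower and 2 higher with ciclopirox, and 12 were lower with crizotinib. ORC1, the largest subunit of the origin recognition complex, gave -0.77 ± 0.16 with ciclopirox (limma adjusted p = 0.0102) and -1.20 ± 0.16 with crizotinib (limma adjusted p = 0.000597). CDC6, which loads the ring together with that complex, gave -0.33 ± 0.10 with ciclopirox (limma adjusted p = 0.0507) and -0.89 ± 0.10 with crizotinib (limma adjusted p = 0.0002). Its probe was dim and detected on 10 of 12 arrays, with 5.09 and 5.17 on C and D against 5.96 and 6.09 on controls A and B. The size of its fall is therefore uncertain. ORC6, another subunit of the complex, was at 0.31 with ciclopirox and -0.61 with crizotinib, a difference between the drugs of 0.93 ± 0.15 (limma adjusted p = 0.00231). Of 12 helicase activation genes, 3 were lower with ciclopirox and 11 with crizotinib. CCNA2, the cyclin of S phase, fell by 0.91 on the log2 scale with ciclopirox and by 0.93 with crizotinib (limma adjusted p = 0.00132 and 0.000771). TOPBP1, a scaffold for helicase assembly, passed against control with neither drug, at 0.39 with ciclopirox and -0.34 with crizotinib.

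Polymerases and fork factors followed. Of 32 tested, 9 were lower and 1 higher with ciclopirox, and 24 were lower with crizotinib. POLE2, a subunit of the leading strand polymerase, gave -0.73 ± 0.10 with ciclopirox and -1.10 ± 0.10 with crizotinib (limma adjusted p = 0.00133 and 6.29e-05). ASF1B, a histone chaperone, gave -0.63 with ciclopirox and -1.08 with crizotinib (limma adjusted p = 0.00248 and 5.08e-05). POLE and POLA2, subunits of the leading strand and primase polymerases, were at -0.05 and -0.10 with ciclopirox, where they did not pass, and at -0.72 and -0.80 with crizotinib. Their differences between the drugs were 0.67 and 0.69 (limma adjusted p = 0.00277 and 0.00391).

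Nucleotide synthesis was mixed. Of 16 genes of deoxynucleotide and thymidylate synthesis, 2 were lower and 2 higher with ciclopirox, and 8 were lower and 1 higher with crizotinib. RRM2, the small subunit of ribonucleotide reductase made in S phase, was at 0.19 ± 0.13 with ciclopirox (limma adjusted p = 0.361) and fell by 1.22 on the log2 scale with crizotinib (limma adjusted p = 0.000155). The difference between the drugs in RRM2 was 1.42 ± 0.13 (limma adjusted p = 5.21e-05). RRM2B, the alternative small subunit of that enzyme, rose by 1.14 with ciclopirox and 1.54 with crizotinib (limma adjusted p = 0.00127 and 0.000125). SHMT2, a mitochondrial enzyme of folate metabolism, rose with ciclopirox (0.77 ± 0.10, limma adjusted p = 0.000568) and was at -0.01 with crizotinib. Of 15 genes of purine and pyrimidine ring synthesis, 2 were lower and 1, GART, was higher with ciclopirox, and 5 were lower with crizotinib. PRPS1, which makes the ribose phosphate donor, gave -0.40 ± 0.10 with ciclopirox (limma adjusted p = 0.028) and -0.54 ± 0.10 with crizotinib (limma adjusted p = 0.00525).

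Among 13 recombination and mismatch repair genes, 2 were lower and 1 higher with ciclopirox, the higher one being EXO1, and 9 were lower with crizotinib. RAD54L, a motor protein of recombination, gave -0.28 ± 0.10 with ciclopirox (limma adjusted p = 0.0883) and -1.34 ± 0.10 with crizotinib (limma adjusted p = 1.13e-05). BLM, a helicase that takes part in resection, gave 0.22 with ciclopirox (limma adjusted p = 0.229) and -0.91 with crizotinib (limma adjusted p = 0.000444), a difference between the drugs of 1.13 ± 0.12 (limma adjusted p = 9.71e-05). UNG, which removes uracil from DNA, fell by 0.85 with ciclopirox and 0.88 with crizotinib. MSH6, which recognises mismatches, fell by 0.66 with ciclopirox and 0.72 with crizotinib on the log2 scale.

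Of 18 E2F genes and regulators, 3 were lower and 2 higher with ciclopirox, and 5 were lower and 1 higher with crizotinib. E2F2, an activator of S phase genes, gave -1.37 with ciclopirox and -1.66 with crizotinib (limma adjusted p = 7.07e-05 and 1.03e-05). E2F7, a repressor of such genes, rose by 1.12 with ciclopirox (limma adjusted p = 0.00063) and was at -0.04 with crizotinib. CDKN1A, an inhibitor of cyclin-dependent kinases, rose by 1.77 with ciclopirox and 2.64 with crizotinib (limma adjusted p = 7.63e-06 and 2.31e-07). Its probe was detected on only 4 arrays. It read 7.28 and 7.30 on C and D and 6.39 and 6.45 on E and F. All other arrays, controls included, lay between 4.55 and 4.84. The rises are therefore measured from undetected levels, so their size is uncertain and the p-values add little.

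By the descriptions, of the same 114 genes 12 were lower and 2 higher in ciclopirox 8 h arrays, where 1.34% of all probes were lower and 1.50% higher. Their median was -0.34, and none passed for crizotinib at 8 h. ORC1 (-1.04), POLE2 (-0.97), ASF1B (-0.94), CHAF1A (-0.90), E2F2 (-1.58) and CDC25A (-1.10) were among the 12 (limma adjusted p between 0.0286 and 0.0331). The 2 higher were RRM2B (1.42, limma adjusted p = 0.0333) and CDKN1A (2.34), whose probe was detected on only 4 of 12 arrays. Arrays C and D, which carry the lowest levels of the replication genes, belong to that group by the descriptions and to crizotinib 24 h by the processed table.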

How the data were processed

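Total RNA (300 ng) of 12 WM35 samples was amplified and labelled with biotin, per the labels' protocols, and their array names share 1 BeadChip. Per the file headers, the deposited scanner table gives each of its 47230 probes a signal intensity, headed as an average, with a detection p-value on every array. GenomeStudio is the tool in the submitters' processing notes (version not given in the sources used here). The deposited intensities were below 0 for 27.1% to 30.2% of an array's probes. A second deposited table, the processed table, holds intensity values for 38223 probes, with its normalization unstated and column medians between 25.0 and 26.4.

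Scanner intensities were background corrected and quantile normalized with neqc in limma 3.58.1 (R 4.3.3; offset 16), which uses the detection p-values, and taken to log2. Of the deposited probes, 18285 with a detection p-value below 0.01 on at least 2 arrays were tested with lmFit and eBayes, with 1 mean per group over all 12 arrays, Benjamini-Hochberg adjustment within each comparison and a threshold of 0.05. The test was checked on simulated data. The number of arrays limits the precision.

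Columns of the scanner table were assigned to samples by the array named in each description, and again by matching the processed table's sample columns to the arrays (centred log2 values). The second assignment was added after seeing the data. Replicate numbers were checked as pairs: with arrays paired by their descriptions, same-numbered ciclopirox and crizotinib 8 h arrays deviated together (r of 0.17, 0.33 and 0.30). With arrays paired by the processed table they did not (-0.06, -0.10 and 0.02). For same-numbered ciclopirox 24 h and crizotinib 24 h arrays, r was 0.38 by the processed table and -0.04 by the descriptions. The 8 genes, the lists and the tests were chosen with earlier results of these data known. From each list, up to 3 genes with the smallest adjusted p in ciclopirox 8 h against control and up to 3 with the largest difference between the drugs over both times could be named, under either pairing. A gene was represented by 1 probe named by the platform table, which names 27008 probes, 4 of them with several genes. The alternatives were a neqc offset of 50, median centring, no filter or a filter on all 12 arrays (13837 probes), fits on the compared groups alone, array weights, the replicate number as a block, the processed values themselves and leaving out arrays. The number of unused per-sample columns was 0. Figures were drawn with matplotlib.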

Additional observations from a re-analysis of the deposited data

Results flagged for a closer look

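Levels by the processed table at 24 h and 8 h differed within a drug by limma's test in most of the genes. For ciclopirox, 24 h minus 8 h was -0.38 in TK1 (adjusted p = 0.0167), -0.56 in MCM2 (0.00176), -0.35 in MCM4 (0.0447), -0.58 in MCM10 (0.00454) and -0.76 in GINS2 (0.000329), and it was 0.43 in EXO1 (0.0113). CDC45 gave -0.29 and missed the threshold (limma adjusted p = 0.0586), with all 3 arrays at 8 h above the control mean and both at 24 h below it. For crizotinib, 24 h minus 8 h was -0.52 in TK1 (limma adjusted p = 0.00248), -0.52 in MCM2 (0.00192), -0.54 in MCM4 (0.00552), -0.91 in MCM10 (0.000212), -0.95 in CDC45 (8.01e-05), -0.69 in GINS2 (0.00032) and -1.03 in EXO1 (4.65e-05). The change over time differed between the drugs, as ciclopirox minus crizotinib, by 0.66 in CDC45 (limma adjusted p = 0.0187) and by 1.46 in EXO1 (0.000235).

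In some of the same genes the processed table placed the arrays of the 2 drugs on either side of the control mean. At 8 h every ciclopirox array was above and every crizotinib array below it in MCM2 (difference 0.18, limma adjusted p = 0.226), MCM10 (0.35, 0.0653) and GINS2 (0.32, 0.0422). At 24 h this held in EXO1 (1.81, limma adjusted p = 1.65e-06).

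By the descriptions, opposite sides were seen in 4 cases, with ciclopirox below and crizotinib above. They were CDC45 at 8 h (difference -0.74, limma adjusted p = 0.0418) and, at 24 h, MCM2 (-0.42, 0.508), MCM10 (-0.56, 0.521) and GINS2 (-0.60, 0.473).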

How the results depend on the processing

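The fit on the values of the processed table also used that table's pairing. It is set here against the fit on scanner values paired by the descriptions. The number of the 8 genes called went to 0 for ciclopirox 8 h, 6 for ciclopirox 24 h and 7 for crizotinib 24 h against control. It went to 6 for ciclopirox 24 h against 8 h and to 7 for crizotinib 24 h against 8 h. Between the drugs it went to 0 at 8 h, 3 at 24 h, 4 over both times and 2 for the interaction. Signs turned there for GINS2 in ciclopirox 8 h against control (0.029). They turned in crizotinib 24 h against control for TK1 (-0.57), MCM2 (-0.70), MCM10 (-1.23), CDC45 (-0.87) and GINS2 (-0.97). In ciclopirox 24 h against 8 h they turned for TK1 (-0.38), MCM2 (-0.56), MCM4 (-0.36), MCM10 (-0.59) and GINS2 (-0.73). In crizotinib 24 h against 8 h they turned for TK1 (-0.50), MCM2 (-0.54), MCM4 (-0.56), MCM10 (-0.98), CDC45 (-0.95), GINS2 (-0.73) and EXO1 (-1.06). Between the drugs they turned at 8 h for MCM10 (0.35), CDC45 (0.069) and GINS2 (0.28), at 24 h for MCM10 (0.73) and CDC45 (0.75), and over both times for MCM10 (0.54), CDC45 (0.41), GINS2 (0.27) and EXO1 (1.08). By construction, each of these values follows another set of arrays.

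Within the pairing by the descriptions, the count for ciclopirox 8 h against control was 3 with an offset of 50, 0 without a filter, 3 with probes detected on all arrays, 0 with only the groups compared, 7 with array weights and 4 with the replicate block, which also gave 4 for the drugs at 8 h and 3 over both times. For ciclopirox against crizotinib at 8 h it was 5, 0 and 0 with the offset of 50, no filter and only the groups compared, and 6 with array weights. Over both times it was 4 with the offset of 50, 1 with median centring, 0 without a filter, 0 with only the groups compared and 4 with array weights. Arrays E, G and J were chosen because they resembled another label in these same data. Leaving them out is therefore no independent check, and it left 1 ciclopirox 24 h array. The medians of the 8 log2 differences were then -0.75 for ciclopirox 8 h and -0.44 for ciclopirox 24 h against control. For ciclopirox 24 h against 8 h the median was 0.17. Between the drugs it was -0.60 at 8 h, -0.41 at 24 h and -0.52 over both times, and 0.08 for the interaction. Leaving out 1 array in turn gave 0 to 6 for ciclopirox 8 h against control, 0 to 7 for the drugs at 8 h, 0 to 5 over both times and 0 to 3 for ciclopirox 24 h against 8 h, and 0 to 0 elsewhere. Where leaving out an array left a group with 1 array, that array was assumed to vary like the others.

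Within the pairing by the processed table, no difference that passed in either fit changed sign under the alternatives run (0 of 1600 values). Another 33 that passed in neither did, none of them over 0.22 in size as reported. With the descriptions, 59 of 1680 values that passed in neither fit changed sign, the largest of them 0.87 in size as reported. For ciclopirox 24 h against control, 2 genes passed with median centring and 1 with only the groups compared. For the drugs at 8 h, 0 passed with median centring, 1 without a filter, and 0 with only the groups compared, the replicate block or the processed values. The replicate block also gave 4 for ciclopirox 24 h against control, and it changed none of the other 8 counts of this pairing. For ciclopirox 24 h against 8 h, 3 passed with only the groups compared. Leaving out 1 array gave 2 to 5, 3 to 6 and 0 to 1 for these comparisons in the order ciclopirox 24 h against control, ciclopirox 24 h against 8 h and the drugs at 8 h. It gave 6 to 7 for crizotinib 24 h against control and against 8 h, 3 to 3 for the drugs at 24 h, 4 to 4 over both times, 1 to 2 for the interaction and 0 to 0 for both drugs at 8 h against control. Dropping arrays E, G and J was not run for this pairing. Otherwise the cause of these changes was not tested.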
